A study of Mus musculus with 4 samples.

Results

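The 36 genes described here are markers of macrophages, lymphocytes and other leukocytes, read from arrays of mouse ureters that did or did not carry a conditional deletion of ΔNp63. They were taken as the probes whose gene name on the array is 1 of 36 listed names (Emr1 is written Adgre1 there). All 36 were found, on 48 of the 39429 probes, and 33 had signal that allowed a test, among 18161 genes tested in all. By role, 7 members are expressed across leukocytes, 19 mark macrophages, 4 T cells and 3 B cells. The other 3, Mpo, Elane and Ngp, are granule genes of neutrophils and their precursors, which the group's name does not cover.

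The tissue was the ureter of NMRI embryos at E18.5, a stage shortly before birth. The mutant, written cKO, was Pax2-cre/+; Trp63(dN-flox/dN-flox), so that a Cre driven by Pax2, a gene of the nephric duct and the epithelia derived from it, acts on 2 floxed alleles of ΔNp63, the p63 isoform that maintains basal epithelium. The control was Trp63(dN-flox/?), with 1 floxed allele, a further allele that the labels do not name, and no cre listed. Both groups thus carried the floxed allele, and no sample carried the cre without it. There were 4 arrays of 2 colours, each with RNA of 1 cKO and 1 control, in 3 female pairs and 1 male pair (array 2). Whether each RNA came from 1 embryo or a pool is not in the labels, and the p-values therefore cover the spread between these 4 arrays alone.

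Macrophages settle in nearly all fetal organs, where they take up dead cells and debris, and they depend on the receptor Csf1r and its ligands Csf1 and Il34. Most are recognised by surface receptors for bacterial sugars, haemoglobin or antibodies and by a large set of lysosomal proteins. T and B cells are marked by the chains of their antigen receptors, and they are few in most fetal tissues. Neutrophils carry granules filled with enzymes such as myeloperoxidase, and they arise before birth in the fetal liver and later in the bone marrow.

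Values are log2 intensities (a level) or log2 ratios of cKO over control on an array (a difference), where 1 is a doubling. A level of one gene cannot be set against that of another, because each probe has its own brightness. A gene was called when limma's Benjamini-Hochberg adjusted p over all 18161 genes was under 0.05, and adjusted p-values below are of this kind. In RNA of whole ureters, fewer cells of a type and less RNA per cell cannot be told apart. Trp63, the targeted gene, fell by 2.18 on the log2 scale (ratios of -2.86, -1.68, -2.03 and -2.13 on arrays 1 to 4, adjusted p = 0.00207). The mean of all its probes was -1.38, and the sources used here do not place the probes against the floxed exon, so this does not check the deletion itself. Of the ureter's own cell types, all 8 smooth muscle, 7 mesenchyme and 10 epithelium genes listed were measured above background; so were all 10 endothelium and 10 hepatocyte genes, so detection does not identify the tissue. Between 71.7% and 75.8% of the probes were well above background in each RNA of arrays 2 to 4, against 81.7% (cKO) and 89.4% (control) on array 1.

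The leukocyte markers differed little between cKO and control ureters, with 1 exception. Mpo, the myeloperoxidase of neutrophil and monocyte precursors, rose 1.55-fold in the cKO, and it was the only member called. This is 3.03% of the 33 tested members, against a background of 8.55% of all tested genes called in either direction. Called higher were 2.92% of all genes and 3.03% of the members. Called lower were 5.63% of all genes and none of the members. At an unadjusted p under 0.05, 5 members were lower (Cd53, Cd163, Clec7a, Fcgr3 and Spi1), or 15.2% against 12.8% of all genes, and 1 was higher (Mpo).

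The absence of calls among most members came with narrow intervals. For 31 of the 33 tested members the 95% interval of the ratio lay within 1.5-fold in both directions. The intervals of Mpo and Ngp reached past 1.5-fold higher, and none reached past 1.5-fold lower. These intervals belong to the main fit, with a normexp offset of 50, and some ratios were larger under other settings. Clec7a, at -0.37 in the main fit, was -0.45 with an offset of 10. It was -0.53 with Agilent's processed signals and -0.54 in the deposited value table. Csf1r changed less, from -0.11 to -0.09 with Agilent's processed signals. The SD of the ratio over the 4 arrays ranged from 0.04 to 0.79 over the members, with a median of 0.14, against 0.13 for all tested genes. The median size of the fitted ratio was 0.09 for the members and 0.08 for all genes, and 30 members were under 0.25.

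**Figure D1:**
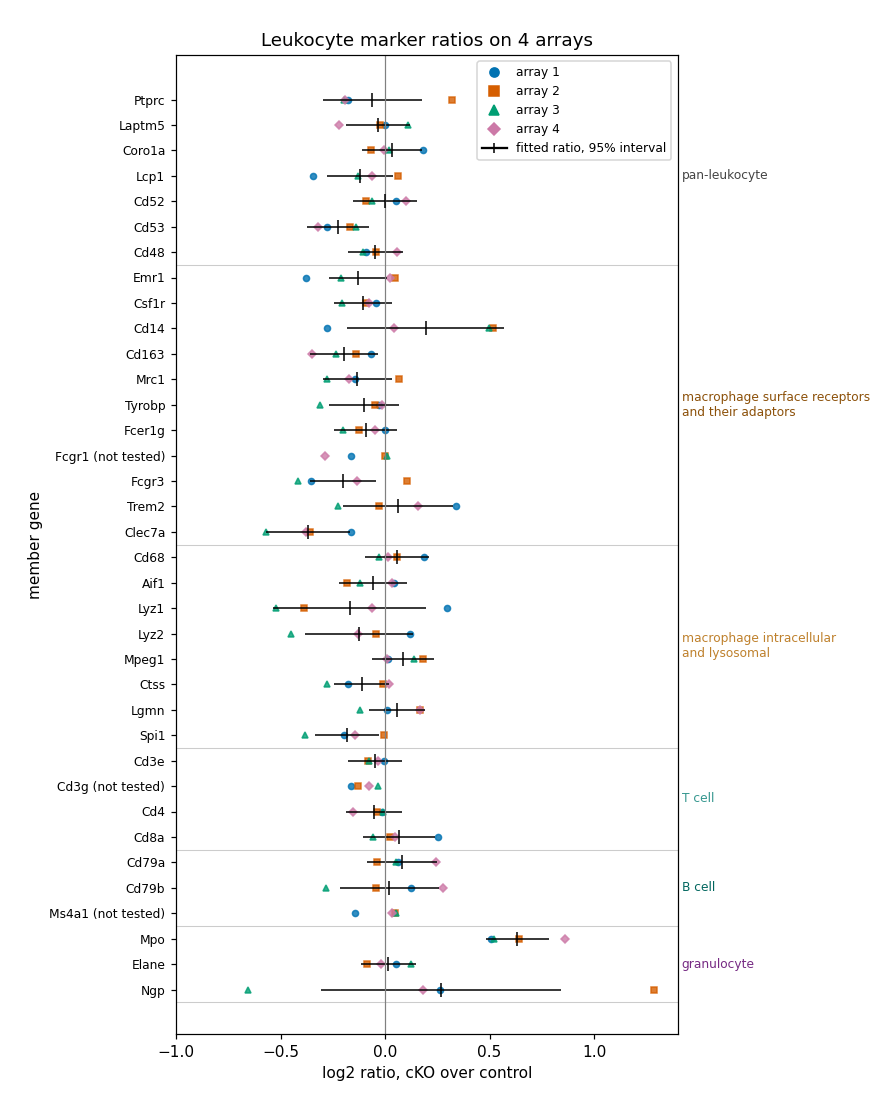
Log2 ratio of cKO over control (horizontal axis) for each of the 36 members (vertical axis, grouped by role) on arrays 1 to 4, with the fitted ratio and its 95% interval where the gene was tested. Mpo is the only member whose interval lies wholly above 0, from 0.48 to 0.78, and the 3 untested members carry no interval.

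Of the 33 tested members, 21 had a fitted ratio below 0 (63.6%), and so did 49.3% of all tested genes. The ratio was below 0 on all 4 arrays for 8 members (24.2%), against 16.3% of all genes, and above 0 on all 4 for Mpo and Mpeg1, which is 6.06% against 14.3%. The median of the members' fitted ratios was -0.05, with array medians of -0.00045, -0.04, -0.14 and -0.01 (SD 0.06, n = 4), and that of all genes was 0.0020. Array 3 stood lowest: 26 members were below 0 there, against 17, 21 and 18 on arrays 1, 2 and 4. Over all genes, array 3 also had the most ratios below 0, with 9981 of 18161, against 8424 to 9274 on the others. In no member did the 4 cKO levels and the 4 control levels fail to overlap; such separation was seen for 3.66% of all genes with the cKO higher and 6.18% with the cKO lower.

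Among the 7 genes expressed across leukocytes, none passed the threshold, 1 (Cd53) was lower at an unadjusted p under 0.05, and 6 had a fitted ratio below 0. Ptprc, the CD45 phosphatase of nearly all leukocytes, had control levels of 7.76, 7.73, 8.13 and 8.24 and cKO levels of 7.58, 8.05, 7.93 and 8.05 on arrays 1 to 4. The groups overlapped almost fully, and only on array 2, the male pair, was the cKO higher. Its ratios were -0.18, 0.32, -0.20 and -0.19, with a fitted value of -0.06 (95% interval -0.30 to 0.18, adjusted p = 0.774). Without array 4 the fitted ratio was 0.07. In that fit array 2, then alone in its dye orientation, weighed as much as arrays 1 and 3 together.

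Cd53, a tetraspanin of leukocyte membranes, was lower in the cKO on every array. Control levels were 9.36, 9.27, 9.72 and 9.83, and cKO levels were 9.08, 9.11, 9.58 and 9.51. The pair on each array differed in the same direction, although the levels of the groups overlapped. The ratios of -0.28, -0.17, -0.14 and -0.32 gave a fitted value of -0.23 (95% interval -0.37 to -0.08), which did not pass the threshold (adjusted p = 0.0871).

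The remaining leukocyte-wide genes stayed closer to 0. Lcp1, the actin-bundling protein L-plastin, had a fitted ratio of -0.12 (adjusted p = 0.332), and its second probe had a mean of -0.13. Cd48, an adhesion ligand, Laptm5, a lysosomal membrane protein of haematopoietic cells, and Coro1a, an actin regulator, lay at -0.05, -0.03 and 0.03. Cd52, a small surface glycoprotein, had ratios of 0.05, -0.09, -0.06 and 0.10, on both sides of 0. Adjusted p-values of these 4 genes were 0.675, 0.806, 0.801 and 0.999 in the order given.

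The 10 tested surface receptors and adaptors of macrophages held 8 fitted ratios below 0 and none that was called, with 3 lower at an unadjusted p under 0.05 (Clec7a, Cd163 and Fcgr3). Csf1r, the receptor on which macrophage survival depends, was slightly lower in the cKO on each array. Control levels were 12.63, 12.45, 12.90 and 12.95 and cKO levels 12.59, 12.36, 12.69 and 12.87. Levels varied more from array to array than within an array. The ratios of -0.04, -0.09, -0.20 and -0.08 gave a fitted value of -0.11 (95% interval -0.24 to 0.03, adjusted p = 0.333). Its other probes, also well above background in every RNA, had means of -0.07 and -0.01.

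Emr1, the adhesion receptor by which mouse macrophages are usually recognised, had control levels of 11.03, 10.71, 11.28 and 11.28 and cKO levels of 10.66, 10.76, 11.07 and 11.30. The cKO was lower on arrays 1 and 3 and slightly higher on arrays 2 and 4. Its fitted ratio was -0.13 (95% interval -0.27 to 0.01, adjusted p = 0.244). The dyes follow the same split: the cKO carried AlexaFluor647 on arrays 1 and 3 and AlexaFluor555 on the others. The fit has a dye term.

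**Figure D2:**
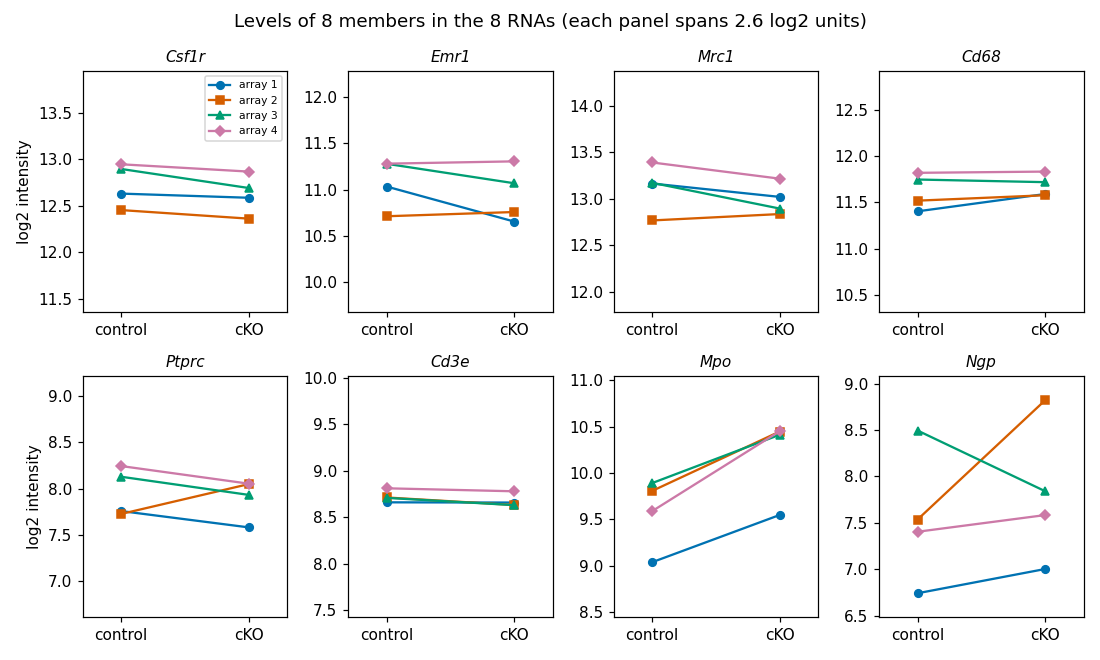
Log2 intensity (vertical axis) of 8 members in the control and cKO RNA of each array (horizontal axis), with a line joining the 2 RNAs of an array and the same height of axis in every panel. All 4 Mpo lines rise, those of Ngp and Ptprc run in both directions, and those of Cd3e are nearly flat.

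Clec7a, the receptor dectin-1 that binds fungal beta-glucans, had the largest fitted difference below 0 among the tested members. Control levels were 7.57, 7.74, 8.42 and 7.97, and cKO levels were 7.41, 7.38, 7.85 and 7.59. The cKO was lower within every array, while the highest cKO level exceeded the lowest control level. Ratios of -0.16, -0.36, -0.57 and -0.38 gave a fitted value of -0.37 (1.29-fold lower, 95% interval -0.57 to -0.17), just short of the threshold (adjusted p = 0.0545). Under 4 of 15 alternative settings it passed, and it did not under the other 11. Without array 1 the fitted ratio was -0.47 (adjusted p = 0.0379), and without array 3 it was -0.27 (0.128).

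Of the scavenger and lectin receptors, Cd163, which takes up haemoglobin bound to haptoglobin, had ratios of -0.07, -0.14, -0.23 and -0.35. These lay below 0 on 4 arrays, with a fitted value of -0.20 (adjusted p = 0.149). Mrc1, the mannose receptor of tissue macrophages, had ratios of -0.14, 0.07, -0.28 and -0.17. The male pair alone was above 0, and the fitted value was -0.13 (adjusted p = 0.307).

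None of the genes of antibody receptors and their adaptors was called. Fcgr3, a low-affinity receptor for IgG, had ratios of -0.36, 0.10, -0.42 and -0.13 and a fitted value of -0.20 (adjusted p = 0.130). Fcer1g, the shared gamma chain through which such receptors signal, lay at -0.09 (adjusted p = 0.434). Tyrobp, the adaptor DAP12 that serves Trem2 and other receptors, had ratios of -0.03, -0.05, -0.31 and -0.01, so that array 3 stood apart from the other 3. Its fitted value was -0.10 (adjusted p = 0.443), and without array 3 it was -0.03. Fcgr1, the high-affinity IgG receptor, was well above background in 3 control and 2 cKO RNAs and was not tested. Its levels were 6.55 to 6.96 in controls and 6.47 to 6.71 in the cKO.

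Cd14 and Trem2 were the only tested surface receptors with fitted ratios above 0, and both varied widely. Cd14, the co-receptor for bacterial lipopolysaccharide, had control levels of 11.67, 11.996, 11.91 and 11.94 and cKO levels of 11.39, 12.51, 12.41 and 11.98. Both the lowest and the highest of these 8 levels were cKO samples. Ratios of -0.28, 0.51, 0.50 and 0.04 gave a fitted value of 0.19 (95% interval -0.18 to 0.57, adjusted p = 0.514). Over the alternatives the Cd14 value ran from 0.00087 (without array 3) to 0.39 (without array 1), and it was called under none. Trem2, a lipid receptor of macrophages and microglia, had ratios of 0.34, -0.03, -0.22 and 0.16 and a fitted value of 0.06 (adjusted p = 0.793).

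The 8 macrophage genes of the cell interior and the lysosome were likewise without a call, and 1 of them (Spi1) was lower at an unadjusted p under 0.05. Cd68, a lysosomal glycoprotein used to stain macrophages, had control levels of 11.40, 11.52, 11.75 and 11.82 and cKO levels of 11.59, 11.58, 11.72 and 11.83. The groups overlapped over nearly their whole range, and the fitted ratio was 0.06 (95% interval -0.09 to 0.21, adjusted p = 0.645). Its second probe had a mean of 0.01. The cysteine proteases Lgmn (legumain) and Ctss (cathepsin S) lay at 0.06 and -0.11 (adjusted p = 0.606 and 0.277). Aif1, the calcium-binding protein IBA1, lay at -0.06 (adjusted p = 0.677). Mpeg1, a pore-forming protein of phagocytes, was above 0 on 4 arrays by 0.01 to 0.18, with a fitted value of 0.09 (adjusted p = 0.454). The second Mpeg1 probe was below 0 on 4 arrays, with a mean of -0.06, but was well above background in 1 control RNA only. Spi1 encodes PU.1, the transcription factor that sets up the myeloid lineage. Its ratios were -0.19, -0.01, -0.38 and -0.14, with a fitted value of -0.18 (adjusted p = 0.156).

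The lysozyme genes Lyz1 and Lyz2 encode enzymes that cut bacterial cell walls, and they are near-identical neighbours, so the last 30 bases of both 60-base probes are shown to let the reader see how far the probes differ. Capitals mark AATAAA or ATTAAA, the hexamers of a polyadenylation signal, searched on the strand of the probe as printed.
Lyz1: cagtgaaaaagtacaaatggcATTAAAtga
Lyz2: ggaatggaatggctggctactatggagtca
The Lyz1 probe lies at chr10:116724862-116724921 and the Lyz2 probe at chr10:116719175-116719234 (mm9; the files write both from the higher to the lower position), with starts 5687 bases apart. In the best ungapped alignment 21 of 55 bases matched, with a longest shared run of 6. This sets the probes against each other and not against the transcript of the other gene, so signal shared between the genes was not examined.

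Both lysozymes gave their lowest ratio on array 3. Lyz1 had control levels of 11.14, 11.53, 12.01 and 11.61 and cKO levels of 11.43, 11.14, 11.49 and 11.54. The control spread was wider than the cKO spread. Its ratios were 0.30, -0.39, -0.52 and -0.06 (fitted -0.17, 95% interval -0.53 to 0.20, adjusted p = 0.567). Lyz2 had ratios of 0.12, -0.04, -0.45 and -0.13 (fitted -0.12, adjusted p = 0.544). Without array 3 the fitted ratios were 0.04 for Lyz1 and 0.02 for Lyz2. In that fit array 1, then alone in its dye orientation, weighed as much as arrays 2 and 4 together.

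Summed over the 18 tested macrophage members, linear intensities were 52880 to 67557 in controls and 54379 to 66296 in the cKO, which overlap. Such a sum weighs bright probes most, such as Lgmn and Mrc1 with mean control levels of 13.90 and 13.12. It therefore does not stand for the 18 genes evenly. The median fitted ratio of these 18 genes was -0.11, with array medians of -0.04, -0.02, -0.23 and -0.03. On array 3, 16 of the 18 were below 0, and 10 or 11 on each of the others. The ligands of Csf1r, also chosen after their values were seen, did not pass the threshold, with fitted ratios of 0.01 for Csf1 (adjusted p = 0.960) and 0.05 for Il34 (0.674).

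The 5 tested lymphoid members gave differences near 0, and none had an unadjusted p under 0.05. Cd3e, a signalling chain of the T cell receptor, had control levels of 8.66, 8.71, 8.71 and 8.81 and cKO levels of 8.66, 8.63, 8.63 and 8.78. It varied least of all members, with an SD of 0.04 over the arrays, and had a fitted ratio of -0.05 (95% interval -0.18 to 0.08, adjusted p = 0.649). The co-receptors Cd4 and Cd8a lay at -0.05 and 0.07 (adjusted p = 0.626 and 0.644). The second Cd8a probe was not well above background in any RNA. Cd3g, another T cell receptor chain, was well above background in 1 control RNA and was not tested.

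The B cell receptor chains Cd79a and Cd79b had fitted ratios of 0.08 and 0.02 (adjusted p = 0.547 and 0.934). For Cd79a the ratios were 0.06, -0.04, 0.05 and 0.25. For Cd79b they were 0.12, -0.04, -0.28 and 0.28, on both sides of 0. Ms4a1, the B cell antigen CD20, was well above background on array 1 only, where its levels were 7.74 in the control and 7.59 in the cKO, against 6.17 to 6.39 in the other 6 RNAs. Array 1 was also where both RNAs lay above the other 6 for Cd4 and Cd8a, and below them for 10 members (Aif1, Cd14, Trem2, Cd79b, Spi1, Laptm5, Cd52, Mpo, Elane and Ngp). The levels of these members thus differed between arrays in both genotypes.

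Mpo stands on a pair of probes from separate stretches of the gene, whose last 30 of 60 bases are shown because they carry the only call among the members.
Mpo, brightest probe: tatttgtacctgaggttcacactAATAAAa
Mpo, second probe: gtggtggatgagatccgggagcgactgttt
They lie at chr11:87617840-87617899 and chr11:87615121-87615180 (mm9, written from the lower to the higher position), with starts 2719 bases apart. Their longest shared run is 4 bases, and the brightest probe holds the hexamer AATAAA. One or other hexamer was in the probes of 10 of the 36 members (27.8%) and in 16.7% of all probes on the array.

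Control levels of Mpo were 9.04, 9.81, 9.89 and 9.59, and cKO levels were 9.55, 10.45, 10.41 and 10.45. The cKO was higher on each array, while the cKO level of array 1 lay below 3 of the 4 control levels, so the groups overlapped. The ratios were 0.51, 0.64, 0.52 and 0.86 (mean 0.63 ± 0.16, SD, n = 4), a 1.55-fold rise (95% interval 1.396 to 1.72, adjusted p = 0.00502). The second probe gave 0.58, 0.74, 0.56 and 0.78, with a mean of 0.66, and so showed the same direction on each array. The ratio ranged from 0.58 to 0.70 over the 15 alternatives and was called in 14. It was not called when both channels were fitted with no block for the array (adjusted p = 0.397); with the array as a block the adjusted p was 0.00609.

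The other granule genes of that stage were not called. Elane, the neutrophil elastase of the same early granules, had control levels of 10.14, 10.48, 10.40 and 10.36 and cKO levels of 10.19, 10.40, 10.52 and 10.35. Its groups overlapped on nearly all of their range, with a fitted ratio of 0.02 (95% interval -0.11 to 0.15, adjusted p = 0.894). Prtn3, a serine protease of those granules that was chosen after its values were seen, lay at 0.07 (adjusted p = 0.559).

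Ngp, a granule protein of later neutrophil precursors, is shown with its probe because it varied most of all members (SD 0.79).
Ngp: gaaaccagttttaatgataagcaagacgtc
The 60 bases of this probe span chr9:110324266-110324814 (mm9), more than their own length on the genome. Control levels were 6.74, 7.54, 8.49 and 7.40, and cKO levels were 7.003, 8.82, 7.84 and 7.58. The highest control was on array 3 and the highest cKO on array 2. The ratios were thus 0.26, 1.29, -0.65 and 0.18 (fitted 0.27, 95% interval -0.31 to 0.84, adjusted p = 0.562), and without array 2 the fitted value was -0.01.

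Other neutrophil genes, chosen after their values were seen, had the signs of Ngp on each array. S100a8 and S100a9, the calprotectin subunits, Ltf (lactoferrin), Camp (cathelicidin), Ctsg (cathepsin G) and Prtn3 were above 0 on arrays 1, 2 and 4 and below 0 on array 3. On array 3 the first 5 lay between -0.76 and -0.55, and Prtn3 at -0.13. None of these 6 genes was called or had an unadjusted p under 0.05. On array 3 Mpo, at 0.52, and Elane, at 0.12, were above 0. Elane was below 0 on arrays 2 and 4, at -0.09 and -0.02. Over all 10 tested genes of the wider granulocyte list the array medians were 0.24, 0.62, -0.46 and 0.21, with 9 of the 10 below 0 on array 3. S100a8, for example, had control levels of 10.15, 10.21, 11.17 and 10.02 and cKO levels of 10.44, 11.03, 10.51 and 10.49, so array 3 had the highest control. Of those 10 genes, Ly6g, a surface protein of neutrophils, was the only one called (0.39, 1.15, 1.34 and 0.67, fitted 0.89, adjusted p = 0.0407). It was above 0 on array 3, and its adjusted p was 0.116 without array 2, 0.0592 without array 3 and 0.0790 without array 4. The call was also lost in the deposited value table (0.0994), with Agilent's processed signals (0.0522), with scaling between arrays (0.0506), with no filter on dim probes (0.0597) and with no array block (0.0617).

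**Figure D3:**
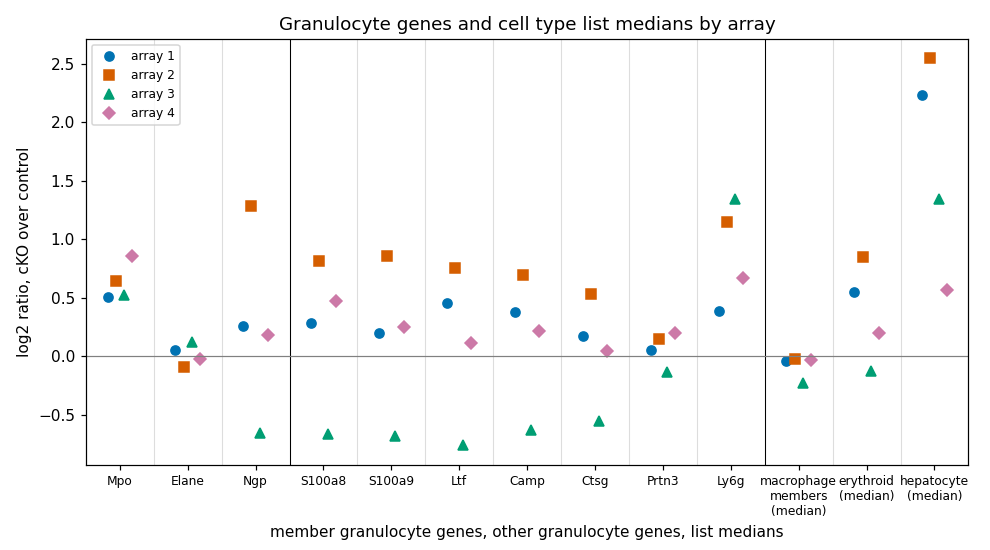
Log2 ratio of cKO over control (vertical axis) on arrays 1 to 4 (markers) for the 3 granulocyte members, 7 other granulocyte genes and the medians of 3 lists (horizontal axis, divided by black lines). Mpo and Ly6g lie above 0 on each array, while Ngp, S100a8, S100a9, Ltf, Camp, Ctsg and, by less, Prtn3 are below 0 on array 3. Elane lies near 0, above it on arrays 1 and 3 and below it on arrays 2 and 4.

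Lists of erythroid and of hepatocyte genes were read in the same RNAs. Among 8 erythroid genes tested, none was called, 2 were higher at an unadjusted p under 0.05, and the list medians were 0.55, 0.85, -0.13 and 0.20 on arrays 1 to 4. Summed erythroid intensities were 189022 to 258800 in controls and 224261 to 281056 in the cKO. Of 10 hepatocyte genes, 5 were called higher (1 without array 1, 0 without array 3 and 8 without array 4). This count was also 0 in the deposited value table, with no filter on dim probes and with no array block, 2 with Agilent's processed signals, and 8 with the array block or no dye term. At an unadjusted p under 0.05, 9 were higher, and the list medians were 2.23, 2.55, 1.35 and 0.57. In this list 1 fitted ratio was below 0, at -0.56. Without array 2, 5 genes were called higher and 1 lower. Afp, the alpha-fetoprotein of fetal liver, rose by a fitted 1.93 (adjusted p = 0.0384), a call that was lost without array 1 (0.134), array 2 (0.0553) or array 3 (0.0544). Summed hepatocyte intensities were 36778 to 69042 in controls and 37217 to 274065 in the cKO. The erythroid and hepatocyte sums, like that of the macrophage members, weigh bright probes most. The Mpo ratios on arrays 1 to 4 were 0.51, 0.64, 0.52 and 0.86. The part of blood or liver RNA in the Mpo and Ngp ratios was not tested.

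Other leukocyte genes, from 3 lists beside the members, gave 3 calls among 59 tested genes, 1 higher (Ly6g) and 2 lower. Over all tested genes 8.55% were called in either direction. Both lower calls were in the list of other macrophage and myeloid genes, whose lowest fitted ratio was -1.40. With no array block 1 gene of that list was called lower. The median fitted ratio of the 37 tested macrophage and myeloid genes was -0.05, and 25 of the 37 were below 0. The following genes were chosen after their values were seen. The complement genes C1qa, C1qb and C1qc, expressed by tissue macrophages, lay at -0.04, -0.01 and -0.07, and none was called. Cx3cr1, the fractalkine receptor, lay at -0.13 and Itgam, the CD11b integrin, at -0.06 (adjusted p = 0.336 and 0.641).

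Lymphoid genes outside the members were often too dim to test. Of 24 listed, 12 were tested, and none of these was called (median 0.02; 2 higher and 1 lower at an unadjusted p under 0.05). Thy1, a surface protein of T cells that fibroblasts and neurons also carry, had a fitted ratio of 0.36 (adjusted p = 0.0544). Among 11 tested ligands and partners of the members' receptors, Gas6, a ligand of the receptor Mertk, was the only gene called (-0.46, adjusted p = 0.0273). Its call was lost without array 1 (0.0618), array 2 (0.081) or array 3 (0.102), with Agilent's processed signals (0.0556) and in the deposited value table (0.0930).

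Mast cells are tissue leukocytes, and no member was listed here as a marker of them alone. The part of mast cell RNA in the ratios of the members, those listed as macrophage genes included, was not tested. Of 6 tested mast cell genes 3 were called, all lower, with a list median of -0.41 (array medians of -0.70, -0.26, -0.37 and -0.42). Kit, the stem cell factor receptor, was chosen after its value was seen. It had the highest ratio of the list, at 0.22, and was higher at an unadjusted p under 0.05. With no array block 1 of the 6 was called. Carboxypeptidase A3, a granule protease (Cpa3), fell 1.99-fold, with ratios of -1.06, -1.03, -0.88 and -0.999 (adjusted p = 0.00123). The chymase Cma1 fell 1.81-fold, with ratios of -0.93, -0.83, -0.89 and -0.78 (adjusted p = 0.00127). Mcpt4, another chymase, fell by 0.45 on the log2 scale (adjusted p = 0.0235; -0.72 with Agilent's processed signals), a call that was lost without array 1 (0.103), array 2 (0.0696) or array 3 (0.0575), in the deposited value table (0.0724) and with no array block (0.479).

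**Figure D4:**
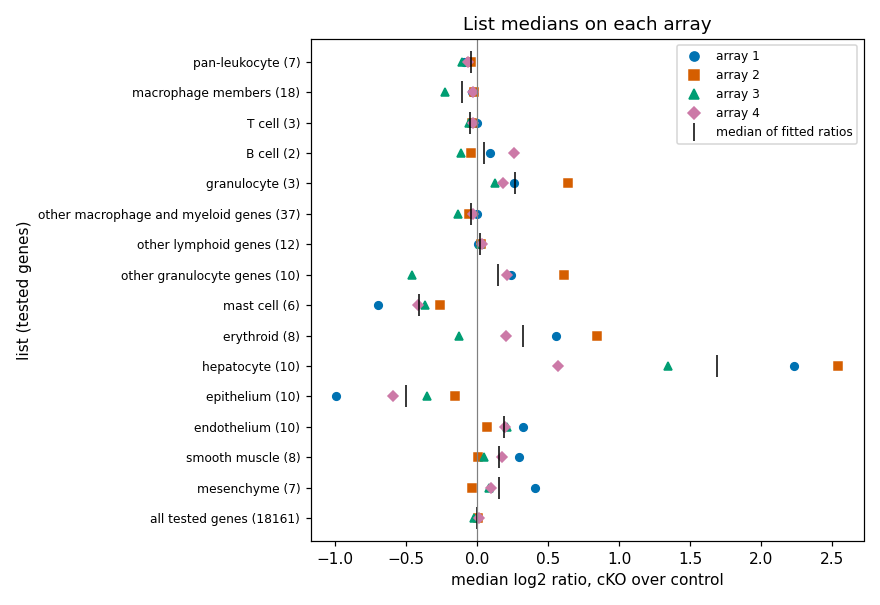
Median log2 ratio of cKO over control (horizontal axis) of each gene list (vertical axis, tested genes in brackets) on arrays 1 to 4, with a bar at the median of the fitted ratios. The macrophage, T cell and pan-leukocyte medians lie within 0.23 of 0 on each array, while the hepatocyte medians reach 2.55.

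Lists of the ureter's own cell types were read in the same fit. Of 10 epithelial genes 4 were called lower, with a list median of -0.50 and array medians of -0.99, -0.15, -0.35 and -0.59. Without array 1 the epithelial median was -0.33, with 2 genes called lower and 1 higher; 1 was lower in the deposited value table, 7 with the array block and 2 without it. Medians were 0.19 for endothelium, 0.15 for smooth muscle and 0.15 for mesenchyme. In the main fit no gene of these 3 lists was called, with 6, 3 and 2 higher at an unadjusted p under 0.05. With the array block 4 endothelium, 1 smooth muscle and 1 mesenchyme genes were called higher. Without array 2, 1 smooth muscle gene was called higher. The part of such shifts in the members' ratios was not tested. For a difference of the male from the female pairs, which beside the dye term equals array 2 minus array 4, the lowest adjusted p over the members was 0.941. Ptprc alone had an unadjusted p under 0.05 for it (a difference of 0.51).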

How the data were processed

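Per the file headers, the authors used Feature Extraction 10.7.3.1 to read the deposited spot intensities (mean signal and local background of each channel, linear scale); the submitters' processing notes name the same software. Total RNA of 200 ng per sample was amplified and labelled, per the labels. The value table the authors deposited holds log2 ratios centred at 0 on each array, with slopes of 0.990 to 1.00 on the scanner ratios; the sources used here do not say how its 7718 to 12487 exact zeros per array arose.

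Signals were corrected with normexp (offset 50) and within-array loess in limma 3.58.1 (R 4.3.3). Outlier-flagged spots (3.04% to 3.58%) were dropped, no spot was saturated, and the 4 spots of a probe were averaged. Levels were read after Aquantile scaling between arrays. A gene was tested if a probe was well above background on all 4 arrays in at least 1 genotype, and its brightest passing probe stood for it. Ratios were fitted with lmFit and eBayes with a dye term (2 residual degrees of freedom). Intervals are limma's. The fit ran on simulated data of 18161 genes for this comparison, and it recovered 58% of 100 genes changed by 0.6 and 81% of 100 changed by 1, with 5 false calls. Median signals were 460.3 to 607.3 over backgrounds of 31 to 82; precision is limited by having 4 arrays. All arrays share 1 scan time, so no scan effect could be separated. Pairing is by array, since both RNAs of a ratio share spots (intra-spot correlation 0.741, statmod 1.5.0); fits of separate channels with and without that block were alternatives, beside other signals, normalizations, probe rules and filters, and each array left out in turn.

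Named genes are all members, up to 3 called genes with the lowest p of each list or its 2 brightest, and Trp63; the other named genes are marked in the text as chosen after their values were seen. Some genes that this rule names are not reported here. The members and lists were chosen with earlier results of these data known. Names were updated through RefSeq (GRCm38.p6): 28328 probes by accession, 3400 by symbol, 243 by older symbol, 1777 kept the file's name and 5681 had none.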

Additional observations from a re-analysis of the deposited data

Results flagged for a closer look

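Of 70 ratios examined for an array that stands apart from the other 3, 2 were found, and chance gives about 1 in 20. Ptprc, the CD45 phosphatase, had a ratio of 0.32 on array 2, the male pair, against -0.20 to -0.18 on the other arrays. Tyrobp, the adaptor DAP12, had a ratio of -0.31 on array 3, against -0.05 to -0.01 on the others.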

How the results depend on the processing

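Mpo kept its direction under all 15 alternatives and its call under 14, and 22 of the 33 tested members kept their sign under each. In the deposited value table, genes called were 259 higher and 596 lower, and Cd52 and C1qb turned to 0.017 and 0.022. Agilent's own processed signals gave 0.013 and 0.017 for them, and Cd52 was 0.0036 with a normexp offset of 10. Csf1 was -0.035 as the mean of its probes. The count of members called lower was 1 (Clec7a) with that offset, with no dye term, and in the fit of separate channels with the array as a replicate block. Other leukocyte genes called were 5 with no dye term and 6 with the replicate block, where 1237 genes were higher and 1731 lower over all genes. With no replicate block 120 genes were higher and 438 lower, 1 other leukocyte gene was called, and 0 members were called higher (Mpo adjusted p = 0.397). No other member's call changed with the replicate block.

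Leaving out each array in turn gave 277 to 354 genes higher and 554 to 764 lower, and 0 to 1 members lower; the 1 was Clec7a without array 1. The lowest counts were 277 higher without array 1 and 554 lower without array 4, and 287 were higher without array 3. Signs turned for genes that were not called, with ranges of -0.19 to 0.068 (Ptprc), -0.37 to 0.036 (Lyz1), -0.27 to 0.018 (Lyz2), -0.079 to 0.20 (Trem2), -0.011 to 0.14 (Cd8a), -0.081 to 0.12 (Cd79b), -0.082 to 0.015 (Laptm5), -0.0091 to 0.074 (Coro1a), -0.049 to 0.048 (Cd52), -0.0012 to 0.034 (Elane) and -0.0083 to 0.54 (Ngp). Among genes that are no members they were -0.0059 to 0.47 (S100a8), -0.063 to 0.37 (S100a9), -0.16 to 0.44 (Ltf), -0.085 to 0.42 (Camp), -0.13 to 0.23 (Ctsg), -0.11 to 0.14 (Csf1), -0.097 to 0.0075 (C1qa), -0.10 to 0.081 (C1qb) and -0.20 to 0.056 (C1qc). Fewer arrays leave fewer residual degrees of freedom, which bears on the calls and not on the fitted ratios. The dye term was kept in these fits, so the array left alone in its dye orientation weighed as much as the remaining pair together. This weighting enters the fitted ratios and their signs, and other causes were not tested.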
